A study of Mus musculus with 9 samples.

Results

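The expression of 10 genes of stomach-type and duct-type epithelium (Tff1, Tff2, Agr2, Ctse, Cldn18, Anxa10, Muc1, Sox9, Spp1 and Gata6) was followed through 9 RNA-seq libraries of fluorescently sorted mouse tumour cells. The genes were taken by name from the deposited table, where each has 1 row among 23799 genes. Of the 10, 9 passed the filter used for testing (at least 1 RPKM in at least 2 libraries) and Tff1 did not. RPKM are reads per kilobase of transcript scaled to the depth of the library, so levels can be set side by side between genes of different length.

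The libraries come from 2 tumour models, pancreatic ductal adenocarcinoma (PDAC) and breast cancer (BC). PDAC cells were sorted for YFP from 2 liver metastases (numbers 1 and 5), 1 lung metastasis (number 1) and 2 primary tumours (numbers 1 and 5). BC cells were sorted for GFP from 2 lung metastases (numbers 4 and 6) and 2 primary tumours (numbers 1 and 5). The study compared metastases with primary tumours and the models with each other.

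All PDAC libraries share the alleles p48-Cre, p53F/+, KrasL/+ and ROSA-LSL-YFP, in which the pancreatic p48 (Ptf1a) driver switches on Cre and Cre switches on the YFP used for the sort. The libraries of number 1 were taken at 25.67 weeks and their genotype label adds SIRT6F/F. Those of number 5 were taken at 28.95 weeks without that label. Age, the SIRT6F/F label and the number cannot be told apart. Sirt6 was at 2.91, 0 and 3.49 RPKM in the liver, lung and primary libraries of number 1, and at 2.23 and 0 RPKM in the liver and primary libraries of number 5. A value over the whole gene does not check a deletion of part of it, and Sirt6 did not separate the numbers. The BC libraries are 4T1-eGFP derived and were taken at 28 days. 4T1 is a mouse mammary carcinoma cell line, so all BC tumours go back to a single line. Libraries with the same PDAC number were taken to come from the same mouse, so the 5 PDAC libraries stand for 2 animals and are not independent in tests that count them as separate.

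Normal pancreatic duct cells carry mucin and the transcription factor SOX9 and do not make the secreted products of the stomach surface. In pancreatic cancer and its precursors, cells often switch on a gastric programme of trefoil peptides, mucins, cathepsin E and the stomach form of claudin 18, which is used to describe well-differentiated, classical tumours. GATA6, an endodermal transcription factor, is a marker of that classical state.

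Library depth and cell content differed widely. The reads on genes, estimated from the steps between low values, ran between 21289100 and 127929000 per library. PDAC lung, PDAC primary 5 and BC lung 6 had the fewest genes above 0 (9530, 10410 and 10938), against 12144 to 20478 in the other 6. Erythroid genes summed to 61295 to 360137 RPKM in the liver, lung and primary 1 libraries of PDAC, 276 RPKM in PDAC primary 5 and 23.2 to 584 RPKM in the BC libraries. The 16 epithelial genes summed to 6017, 383, 265, 2093 and 14887 RPKM in PDAC liver 1, liver 5, lung 1, primary 1 and primary 5, and to 3341 to 6379 RPKM in BC. B and plasma cell genes reached a summed level of 36366.5 in primary 1 of PDAC but of only 2.31 in its primary 5 (both as RPKM). The liver and lung libraries of PDAC held 3384 to 11335 RPKM of these genes, and the BC libraries held 9.99 to 61.9 RPKM. In sorted bulk cells, fewer cells of a type and less RNA per cell cannot be told apart. The part these contents play in the results below was not tested.

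Promoter sequence from RefSeq (mouse GRCm38.p6) was matched for 5 of the 10 genes, and those of Cldn18, Agr2 and Anxa10 are shown because Cldn18 and Agr2 followed nearly the same pattern among the PDAC libraries and Anxa10 a different one. Each is the 250 bases before an annotated start, 5′ to 3′ on the strand of the gene. Capitals mark matches, on either strand, to a GATA motif (AGATAA), a FOX motif (TGTTTAC or TGTTTGC) or a SOX motif (AACAAT). The windows lie at chr9:99717268-99717517 (Cldn18 upstream start, minus strand), chr9:99710064-99710313 (Cldn18 downstream start, minus strand), chr12:35992675-35992924 (Agr2, plus strand) and chr8:62123194-62123443 (Anxa10, minus strand).
Cldn18 upstream start: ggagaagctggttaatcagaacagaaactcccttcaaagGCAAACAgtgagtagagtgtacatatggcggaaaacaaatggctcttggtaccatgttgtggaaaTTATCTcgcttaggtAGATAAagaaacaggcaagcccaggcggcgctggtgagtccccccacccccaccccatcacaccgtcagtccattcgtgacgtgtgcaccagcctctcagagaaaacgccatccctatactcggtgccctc
Cldn18 downstream start: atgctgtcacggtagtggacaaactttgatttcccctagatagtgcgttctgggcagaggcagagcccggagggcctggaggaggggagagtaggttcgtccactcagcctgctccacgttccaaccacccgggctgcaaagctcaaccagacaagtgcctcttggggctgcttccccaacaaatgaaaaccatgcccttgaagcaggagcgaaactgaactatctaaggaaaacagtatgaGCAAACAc
Agr2: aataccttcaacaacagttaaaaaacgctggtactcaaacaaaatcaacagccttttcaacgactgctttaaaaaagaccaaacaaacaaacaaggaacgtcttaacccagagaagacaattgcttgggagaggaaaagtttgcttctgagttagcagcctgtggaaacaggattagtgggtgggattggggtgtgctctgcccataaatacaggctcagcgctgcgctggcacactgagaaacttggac
Anxa10: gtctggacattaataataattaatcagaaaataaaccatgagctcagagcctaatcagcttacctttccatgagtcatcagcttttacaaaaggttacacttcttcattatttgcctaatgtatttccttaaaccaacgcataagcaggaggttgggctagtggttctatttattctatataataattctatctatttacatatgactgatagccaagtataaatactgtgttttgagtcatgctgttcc
The upstream Cldn18 window holds 2 GATA matches, at -146 and -131 from the start, and 1 FOX match at -211. The downstream window holds 1 FOX match at -8. The motifs do not overlap each other, and the windows of Agr2, Anxa10, Muc1 and Spp1 hold no match. Of all 32851 promoter windows of the same length, 9.99% hold the GATA letters, 7.29% the FOX letters and 9.42% the SOX letters. A match describes the letters only. RefSeq lists both Cldn18 starts, of which one gives the lung form and the other the stomach form in human and mouse, and the deposited value per gene does not separate them.

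The gastric genes were present in PDAC libraries and near 0 in BC libraries, but they were not present in every PDAC library. PDAC primary 5 held all 10 genes above 0, liver 5 held 9, primary 1 held 8, liver 1 held 7 and lung 1 held 4. The BC libraries held 6, 3, 5 and 7 of them above 0 (lung 4, lung 6, primary 1 and primary 5). Of the 10 genes, 8 had their highest PDAC level in primary 5, and Anxa10 and Spp1 had theirs in liver 1.

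**Figure D1:**
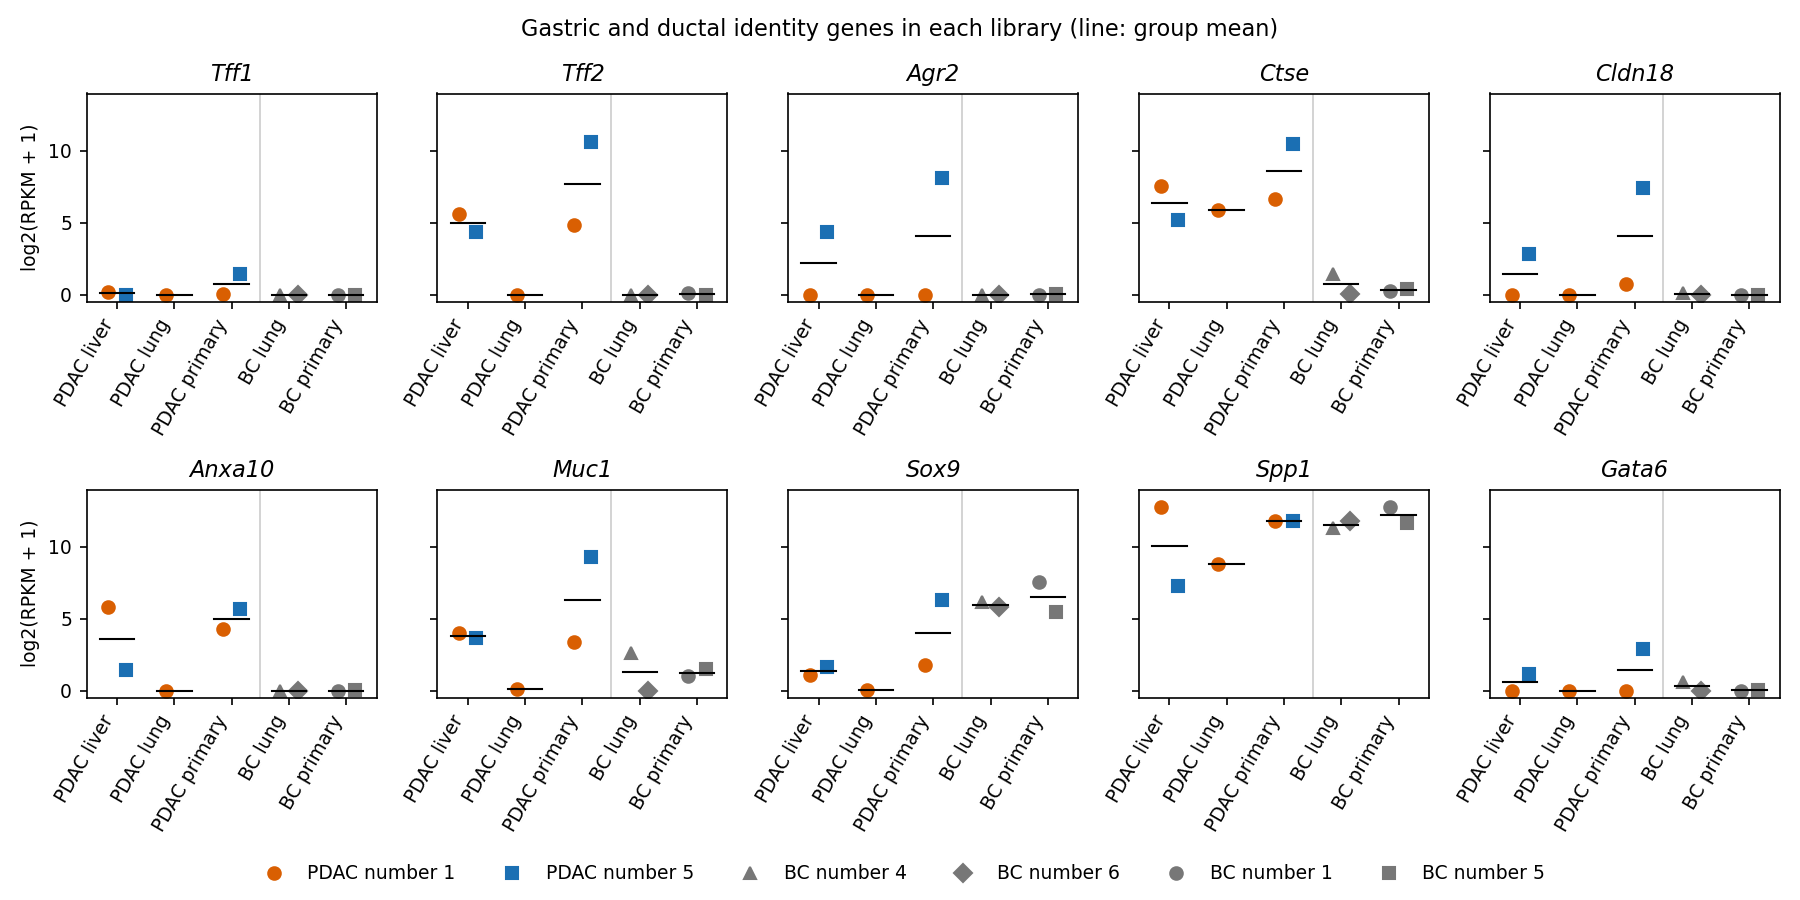
Level of the 10 genes in each library, as log2(RPKM + 1), with PDAC libraries left of the BC libraries. PDAC primary 5 holds the highest PDAC level of 8 genes, while Spp1 overlaps between the models and Sox9 is higher in all 4 BC libraries than in 4 of the 5 PDAC libraries.

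Tff1 and Tff2 encode small trefoil peptides that are secreted with mucus by the stomach. Tff2 was at 47.5 and 19.6 RPKM in PDAC liver 1 and liver 5, 0 in PDAC lung, and 27.2 and 1560.5 RPKM in PDAC primary 1 and primary 5. It was listed at 0 in 3 BC libraries and at 0.0817 RPKM, about 4 reads, in BC primary 1. PDAC primary 5 was 57.3-fold above PDAC primary 1, the next primary. Tff1 reached 1.74 RPKM in PDAC primary 5, was at 0.121 and 0.0444 RPKM in PDAC liver 1 and primary 1, and was listed at 0 in PDAC liver 5, PDAC lung and the 4 BC libraries. Tff1 was therefore not tested.

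Agr2, a protein disulfide isomerase that folds mucins in the endoplasmic reticulum, was confined to the 2 libraries of PDAC number 5 apart from traces. It was at 19.9 RPKM in PDAC liver 5 and 274 RPKM in PDAC primary 5, and was listed at 0 in PDAC liver 1, lung 1 and primary 1. In BC it was listed at 0 except for 0.00591 RPKM, about 1 read, in primary 5. Cldn18, the tight junction claudin of stomach and lung, had nearly the same pattern, at 6.11 RPKM in PDAC liver 5 and 173 RPKM in PDAC primary 5, against 0 in PDAC liver 1 and lung 1 and 0.667 RPKM in PDAC primary 1. BC lung 4 had 0.0848 RPKM of Cldn18, and the other 3 BC libraries listed it at 0. Cldn18 was at 0 in the PDAC lung library although that library held 34207 RPKM of Sftpc, the surfactant gene of alveolar type 2 cells, and 29.8 RPKM of Ager, an alveolar type 1 gene.

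Ctse, the aspartic protease cathepsin E of gastric surface cells, was the only one of the 10 above its BC levels in all 5 PDAC libraries. It was at 189 and 35.8 RPKM in PDAC liver 1 and liver 5, 59.5 RPKM in PDAC lung, and 102 and 1441 RPKM in PDAC primary 1 and primary 5. In BC it was at 1.74 and 0.0270 RPKM in lung 4 and lung 6 and at 0.192 and 0.325 RPKM in primary 1 and primary 5. The lowest PDAC value lay above the highest BC value. Among all tested genes, 2.72% had all 5 PDAC libraries above all 4 BC libraries.

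Anxa10, an annexin of the stomach, differed from the other gastric genes in where it was highest. It was at 55.5 and 1.65 RPKM in PDAC liver 1 and liver 5, 0 in PDAC lung, and 18.3 and 49.7 RPKM in PDAC primary 1 and primary 5. In BC it was listed at 0 except for 0.00427 RPKM in primary 5. The number 1 libraries of liver and primary thus held Anxa10, while Agr2 was at 0 in them.

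Muc1, a transmembrane mucin of ducts and of many glands including the mammary gland, was at 14.7 and 11.5 RPKM in PDAC liver 1 and liver 5, 0.0667 RPKM (about 2 reads) in PDAC lung, and 9.30 and 635 RPKM in PDAC primary 1 and primary 5. BC lung 4 and lung 6 had 5.00 and 0 RPKM, and BC primary 1 and primary 5 had 0.971 and 1.79 RPKM. All PDAC liver and primary values lay above all BC values, and the PDAC lung value lay below 3 of the 4 BC values.

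The transcription factors Sox9 and Gata6 went separate ways. Sox9, which maintains duct and progenitor cells, was at 1.08 and 2.11 RPKM in PDAC liver 1 and liver 5, 0.0189 RPKM (about 1 read) in PDAC lung, and 2.44 and 77.6 RPKM in PDAC primary 1 and primary 5. In BC it was at 71.3 and 54.5 RPKM in lung 4 and lung 6 and at 188 and 43.8 RPKM in primary 1 and primary 5. Only PDAC primary 5 reached the range of the BC libraries. Gata6 was low everywhere, at 1.22 RPKM in PDAC liver 5 and 6.53 RPKM in PDAC primary 5, and was listed at 0 in PDAC liver 1, lung 1 and primary 1. BC lung 4 and BC primary 5 had 0.485 and 0.00956 RPKM, and the other BC libraries listed it at 0.

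Spp1 encodes osteopontin, a secreted phosphoprotein that duct cells, tumour cells and macrophages can make. It was at 6898 and 158 RPKM in PDAC liver 1 and liver 5, 459 RPKM in PDAC lung, and 3655 and 3537 RPKM in PDAC primary 1 and primary 5. BC had 2526 and 3503 RPKM in lung 4 and lung 6 and 6919 and 3285 RPKM in primary 1 and primary 5. Spp1 was the most abundant of the 10 in each library, and the models overlapped. Thus of the 10 genes taken as a PDAC programme, Sox9 and Spp1 were not higher in PDAC.

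PDAC against BC was tested over all 9 libraries with the site (metastasis or primary tumour) as a term. One of the 9 tested members, Ctse, differed at an adjusted p under 0.05, with a difference of 6.75 ± 0.96 on the log2(RPKM + 1) scale (SE, limma, adjusted p = 0.00306, higher in 5 of 5 PDAC libraries). Of all 12832 tested genes, 381 or 2.97% were called, 1.13% higher in PDAC and 1.84% lower. Ctse stayed called in every alternative, with differences of 5.64 to 8.54 and adjusted p of 0.00186 to 0.0249. With the PDAC number as a replicate block, 3 members were called: Ctse (6.83, adjusted p = 0.00633), Agr2 (3.19, adjusted p = 0.0457) and Tff2 (5.63, adjusted p = 0.0482). Of all 12832 genes, 298 were called with that block. The block takes the difference between the PDAC numbers out of the spread and still counts libraries of 1 mouse as separate. Its SEs can therefore be too small for a difference between models. Agr2 was listed at 0 in PDAC liver 1, lung 1 and primary 1, so its call rests on the libraries of number 5. Ctse was highest in PDAC primary 5, where erythroid genes were lowest of the PDAC libraries. Macrophage genes summed to 1358 RPKM there, against 3766 to 20714 RPKM in the other PDAC libraries. In PDAC lung, Ctse was at 59.5 RPKM beside the lowest epithelial sum of all libraries, 265 RPKM. The same comparison called 6 of 10 tested erythroid genes and 5 of 16 macrophage genes higher in PDAC. The part of cell content in the Ctse difference was not tested.

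The other members did not pass the threshold without the block. Tff2 differed by 5.29 ± 1.43 (adjusted p = 0.0710 by limma) and Anxa10 by 3.57 ± 1.10 (adjusted p = 0.109). Muc1, Agr2, Cldn18 and Gata6 differed by 3.02, 2.64, 2.34 and 0.71, with SEs of 1.36, 1.43, 1.20 and 0.57 and adjusted p of 0.238 to 0.4997. Sox9 differed by -3.90 ± 1.02 (adjusted p = 0.0615) and Spp1 by -1.22 ± 0.83 (adjusted p = 0.421). Sox9 passed when PDAC primary 5 was left out (-4.96, adjusted p = 0.00326), and Tff2 and Anxa10 passed when the PDAC lung library was left out (6.32 and 4.29, adjusted p = 0.0175 and 0.0460). Of all tested genes, 818 of 12614 and 267 of 12632 were called in these 2 settings. With PDAC libraries averaged per mouse, an alternative added after seeing the data, Anxa10 (adjusted p = 0.00766), Tff2 (0.0163) and Sox9 (0.0332) passed beside Ctse. That fit had no site term and called 1288 of 12832 genes. The median difference of the 9 members was 2.64, against -0.21 for all tested genes. Tff2, Agr2, Ctse, Cldn18, Anxa10 and Gata6 reached the low-value filter only with PDAC libraries, so a positive median was built into which genes could be tested.

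**Figure D2:**
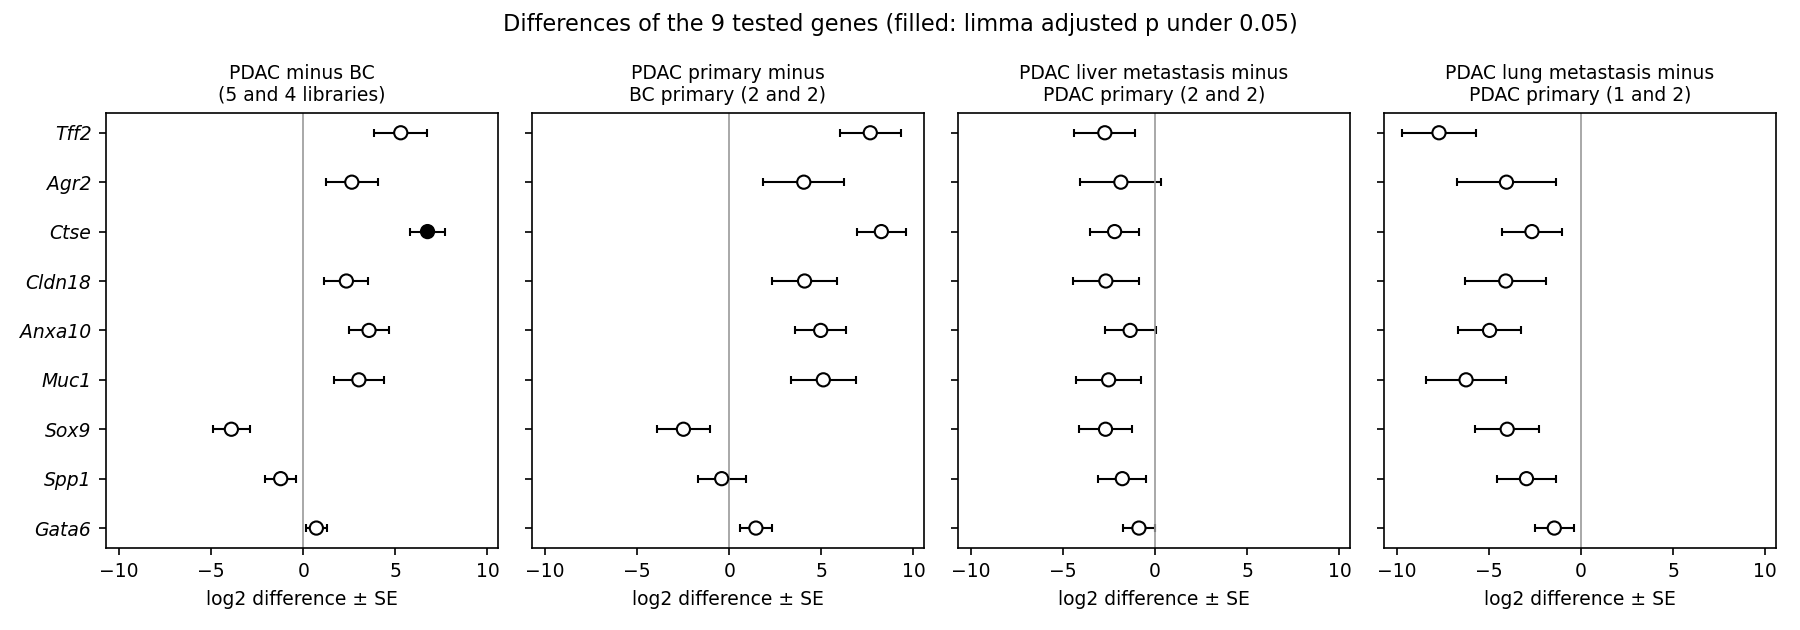
Log2 differences with their SEs for the 9 tested genes in 4 comparisons fitted by limma. Ctse in PDAC against BC is the one difference that passed an adjusted p of 0.05. All 9 differences of PDAC metastases from PDAC primaries lie below 0 as deposited, and scaled on epithelial genes those of Anxa10 and Gata6 (liver) and of Spp1, Ctse and Gata6 (lung) do not. Gata6 was listed at 0 in PDAC liver 1, lung 1 and primary 1, and scaling shifts a value of 0.

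Between the primary tumours alone (PDAC primary 1 and 5 against BC primary 1 and 5), no member passed the limma test and 4 of 12832 genes did (0.0312%). Ctse differed by 8.26 ± 1.35 (adjusted p = 0.108), Tff2 by 7.66 ± 1.66 (adjusted p = 0.153), Muc1 by 5.11 ± 1.76 and Anxa10 by 4.97 ± 1.39. At an unadjusted p under 0.05 there were 5 members, Cldn18 being the fifth with 4.09 ± 1.78, all higher in PDAC, against 3.76% of all genes in that direction. Both PDAC primaries lay above both BC primaries for 5 of the 9 tested members (Tff2, Ctse, Cldn18, Anxa10 and Muc1), against 15.7% of the tested genes. The same held for Tff1, which was not tested and rests on about 1 read in PDAC primary 1. Tff2, Ctse, Cldn18 and Anxa10 reached the low-value filter only with PDAC libraries. Higher values in PDAC were thus built in for them, and the counts cannot be weighed against these shares. The differences turned on single libraries. Without PDAC primary 1, leaving PDAC primary 5 alone, those of Ctse, Gata6, Agr2, Muc1, Cldn18 and Tff2 were 2.91 to 10.55. Without PDAC primary 5 that of Ctse was 6.35.

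The liver metastases of PDAC were then set against the PDAC primaries. No member passed the limma test, none had an unadjusted p under 0.05 (6.4% of genes did), and 1 of 12832 genes was called (0.00779%). The differences of all 9 members were negative, between -0.88 for Gata6 and -2.73 for Tff2, while the median of all genes was 0.08. Without PDAC primary 5 the differences of Tff2 and Muc1 were 0.16 and 0.45, and scaling on epithelial genes gave 0.22 for Anxa10 and 0.69 for Gata6. Gata6 was listed at 0 in PDAC liver 1 and primary 1 and was at 1.22 RPKM in liver 5. Scaling shifts such low values, so its turned sign does not describe its level. Sox9 was the one member whose liver libraries both lay below both primaries (-2.69 ± 1.43), against 10.2% of tested genes. Without PDAC primary 1, leaving PDAC primary 5 as the only primary, the differences of Sox9, Agr2, Muc1, Cldn18 and Tff2 were -4.95 to -6.03. With the number as a replicate block 0 genes were called.

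The pairs of libraries with the same number gave different pictures. In number 1, 6 members were higher in liver than in primary, 2 were lower and 2 were listed at 0 in both, with a median of 0.36 on the log2(RPKM + 1) scale. Tff1, among the 6, rests on about 1 read in each library. Of all tested genes 41% were higher in liver 1. Anxa10 was 3.03-fold, Spp1 1.89-fold, Ctse 1.86-fold and Tff2 1.74-fold higher in liver 1 than in primary 1. In number 5 all 10 were lower in liver, with a median of -4.55, while 64.7% of all tested genes were higher there. The fold by which primary 5 exceeded liver 5 was 79.5 for Tff2, 55.0 for Muc1, 40.2 for Ctse, 36.8 for Sox9, 30.2 for Anxa10, 28.4 for Cldn18 and 13.8 for Agr2. Each value compares 1 library with 1 library and has no replicate.

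General epithelial genes had the same signs in these pairs. The 13 tested epithelial genes had a median of 1.31 for liver 1 over primary 1 and -5.23 for liver 5 over primary 5, against -0.14 and 0.72 for all tested genes. The mean log2 level of all 16 listed epithelial genes was 3.89 in PDAC liver 1 and 3.22 in PDAC primary 1, and 3.14 in PDAC liver 5 and 6.65 in PDAC primary 5. After subtracting that mean, the number 5 differences of the members at 1 RPKM or more in both libraries were -2.73 for Tff2, -2.16 for Muc1, -1.78 for Ctse, -1.15 for Sox9, -1.11 for Cldn18, -0.97 for Spp1, -0.75 for Anxa10, -0.21 for Agr2 and 1.75 for Gata6. Gata6 was at 1.22 RPKM in PDAC liver 5, and the log2(RPKM + 1) scale understates the change of low genes. The number 1 differences were -1.40 for Sox9, 0.88 for Anxa10, 0.25 for Spp1, 0.22 for Ctse, 0.11 for Tff2 and -0.06 for Muc1. Hepatocyte genes summed to 1036 and 2757 RPKM in PDAC liver 1 and liver 5, against 1.93 and 248 RPKM in PDAC primary 1 and primary 5. Of the sum in PDAC primary 5, 245 RPKM came from Apoa1 alone, and Alb was listed at 0 there.

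**Figure D3:**
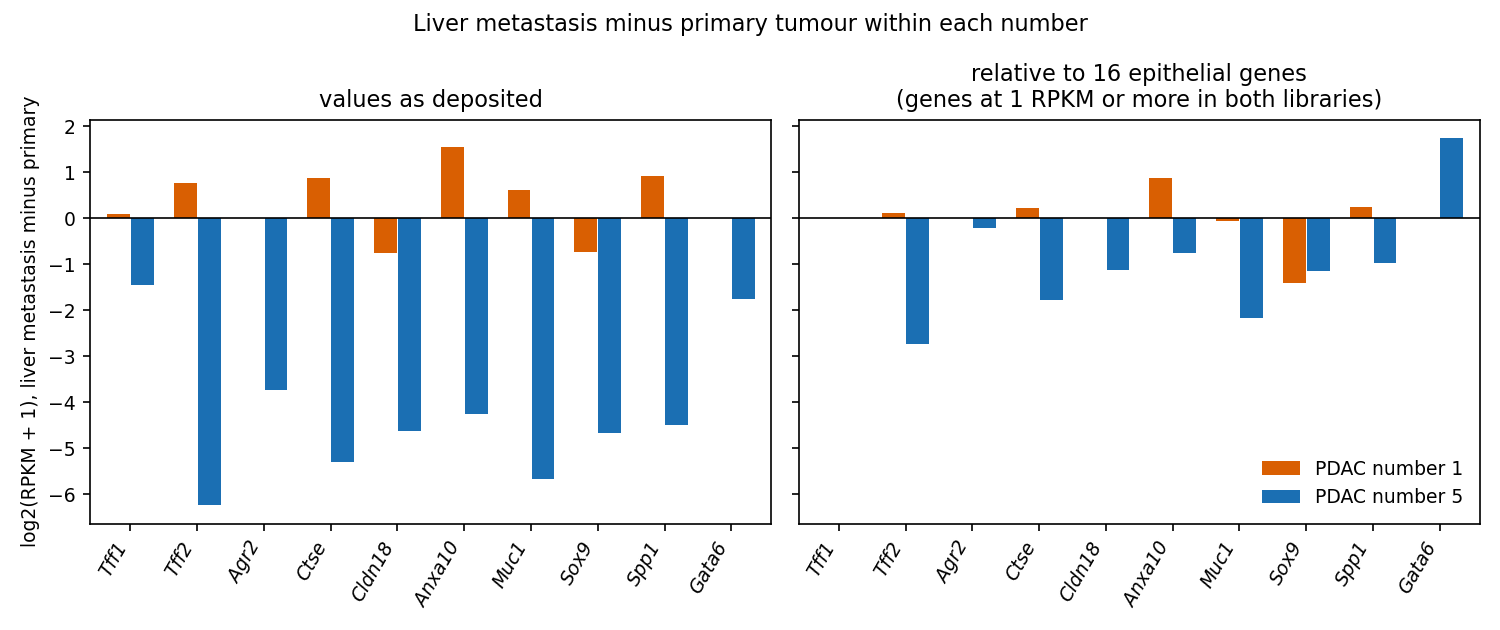
Log2 difference of the liver from the primary library for each gene in PDAC numbers 1 and 5, as deposited and relative to 16 epithelial genes, the second for genes at 1 RPKM or more in both libraries. All 10 bars of number 5 lie below 0 as deposited, and 6 of number 1 lie above 0.

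The single PDAC lung metastasis held Ctse and Spp1 and little else of the set. Ctse, at 59.5 RPKM, was above its level in PDAC liver 5, and Spp1 was at 459 RPKM. In that library 6 members were listed at 0, and Muc1 and Sox9 rested on about 2 and 1 reads. Against the PDAC primaries no member passed the limma test, 75 of 12832 genes did (0.584%, and 0 genes with the number as a replicate block), and 4 members had an unadjusted p under 0.05 (Tff2, Anxa10, Muc1 and Sox9, all lower in lung, against 7.97% of genes in that direction). The differences ran from -1.46 for Gata6 to -7.71 for Tff2, with -0.50 as the median of all genes, and scaling on epithelial genes gave 0.27 for Spp1, 0.56 for Ctse and 1.78 for Gata6. Gata6 was listed at 0 in the lung library, and scaling shifts a value of 0, so this sign does not describe its level. The lung library had the fewest genes above 0 of all libraries and the lowest epithelial sum of the 9. Without PDAC primary 1, where both groups were single libraries, 0 of the 9 differences were positive.

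In BC, the lung metastases did not differ detectably from the primaries for any member. No member and no gene passed the limma test, and 265 genes (2.07%) had an unadjusted p under 0.05, with none of the members among them. The largest differences were -0.68 ± 1.30 for Spp1, -0.54 ± 1.43 for Sox9 and 0.42 ± 1.35 for Ctse. The difference between the metastasis effects of the models, PDAC liver minus BC lung, was not called for any gene (530 genes, 4.13%, at an unadjusted p under 0.05), and ran from -1.10 to -2.74 for the members, none of them under 0.05 before adjustment, with 0.53 as the median of all genes. On the epithelial scale 3 of the 9 differences were positive, and without PDAC primary 5, 3 of the 6 that could be tested.

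Other genes of the gastric programme stood highest in PDAC primary 5. There the gastrokines Gkn1 and Gkn2, secreted by the stomach surface, were at 1859 and 1449 RPKM, the trefoil gene Tff3 at 309 RPKM and the gastric mucin genes Muc5ac and Muc6 at 15.1 and 13.4 RPKM. Gkn1, Gkn2, Tff3 and Muc6 were listed at 0 in PDAC primary 1. PDAC liver 5 had 8.53 and 9.69 RPKM of Gkn1 and Gkn2, and PDAC liver 1 had 12.4 RPKM of Tff3 and 1.23 RPKM of Muc5ac. Tspan8, a tetraspanin of gut epithelium, was at 164, 9.28, 16.4, 36.2 and 312 RPKM in PDAC liver 1, liver 5, lung 1, primary 1 and primary 5, against at most 2.32 RPKM in BC. Of 22 listed gastric genes other than the members, 14 were tested, and 3 were called higher in PDAC than in BC (Lgals4, Tspan8 and Vsig2). Of all tested genes, 1.13% were called higher. The 14 differences had a median of 2.86, but 0 of these genes reached the low-value filter in BC libraries alone. Positive signs were thus built in by the filter, and the 3 calls cannot be weighed against that share.

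Of 12 tested duct genes, Car2, a carbonic anhydrase, was called higher in PDAC. Car2 was highest in PDAC lung, at 306 RPKM, beside an epithelial sum of 265 RPKM and an erythroid sum of 360137 RPKM. It was next highest in PDAC primary 5, at 258 RPKM, beside an erythroid sum of 276 RPKM. PDAC liver 1, liver 5 and primary 1 held 160, 232 and 63.3 RPKM of Car2. The part of cell content in this call was not tested. The median difference of the 12 duct genes was 1.51 and 11 were positive, against 42.5% of all tested genes. In BC libraries alone, 3 of the 12 reached the low-value filter. For the others positive signs were built in by the filter, so the count cannot be weighed against that share. Krt19, a duct keratin, was at 603, 27.4, 0.338, 214 and 2177 RPKM in PDAC liver 1, liver 5, lung 1, primary 1 and primary 5, against 14.6 to 141 RPKM in BC. Pdx1, a pancreatic and antral stomach transcription factor, was at 6.30, 0.0318, 0, 1.69 and 11.4 RPKM in the same PDAC libraries and at most 0.0276 RPKM in BC.

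The endoderm transcription factors gave no calls among 6 tested, with 4 positive differences and a median of 0.75. Hnf4a and Foxa1 reached 13.9 and 6.40 RPKM in PDAC primary 5 and at most 0.147 RPKM in the other PDAC libraries. Elf3 and Ehf, epithelial ETS factors, were at 547 and 104 RPKM in PDAC primary 5, against at most 17.7 and 0.424 RPKM in the other PDAC libraries. Klf5 did not separate the models, at 0.0672 to 293 RPKM in PDAC and 50.4 to 123 RPKM in BC. Of 9 tested basal and squamous genes, 3 had positive differences, against 42.5% of all tested genes, and the median was -1.09. Krt17 and Krt5 reached 49.3 and 26.3 RPKM in PDAC primary 5, against at most 13.1 and 0.207 RPKM in BC. Krt14 reached 4.16 RPKM in PDAC and 53.5 RPKM in BC. Of the 9 genes, Ly6d was called higher in PDAC, at 127 to 2255 RPKM against 0.0929 to 0.565 RPKM in BC. For the osteopontin partners, Mmp3, a matrix metalloproteinase that cleaves osteopontin, was called lower in PDAC, and the receptor gene Cd44 was at 12.1 to 95.8 RPKM in PDAC and 11.6 to 19.97 RPKM in BC.

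**Figure D4:**
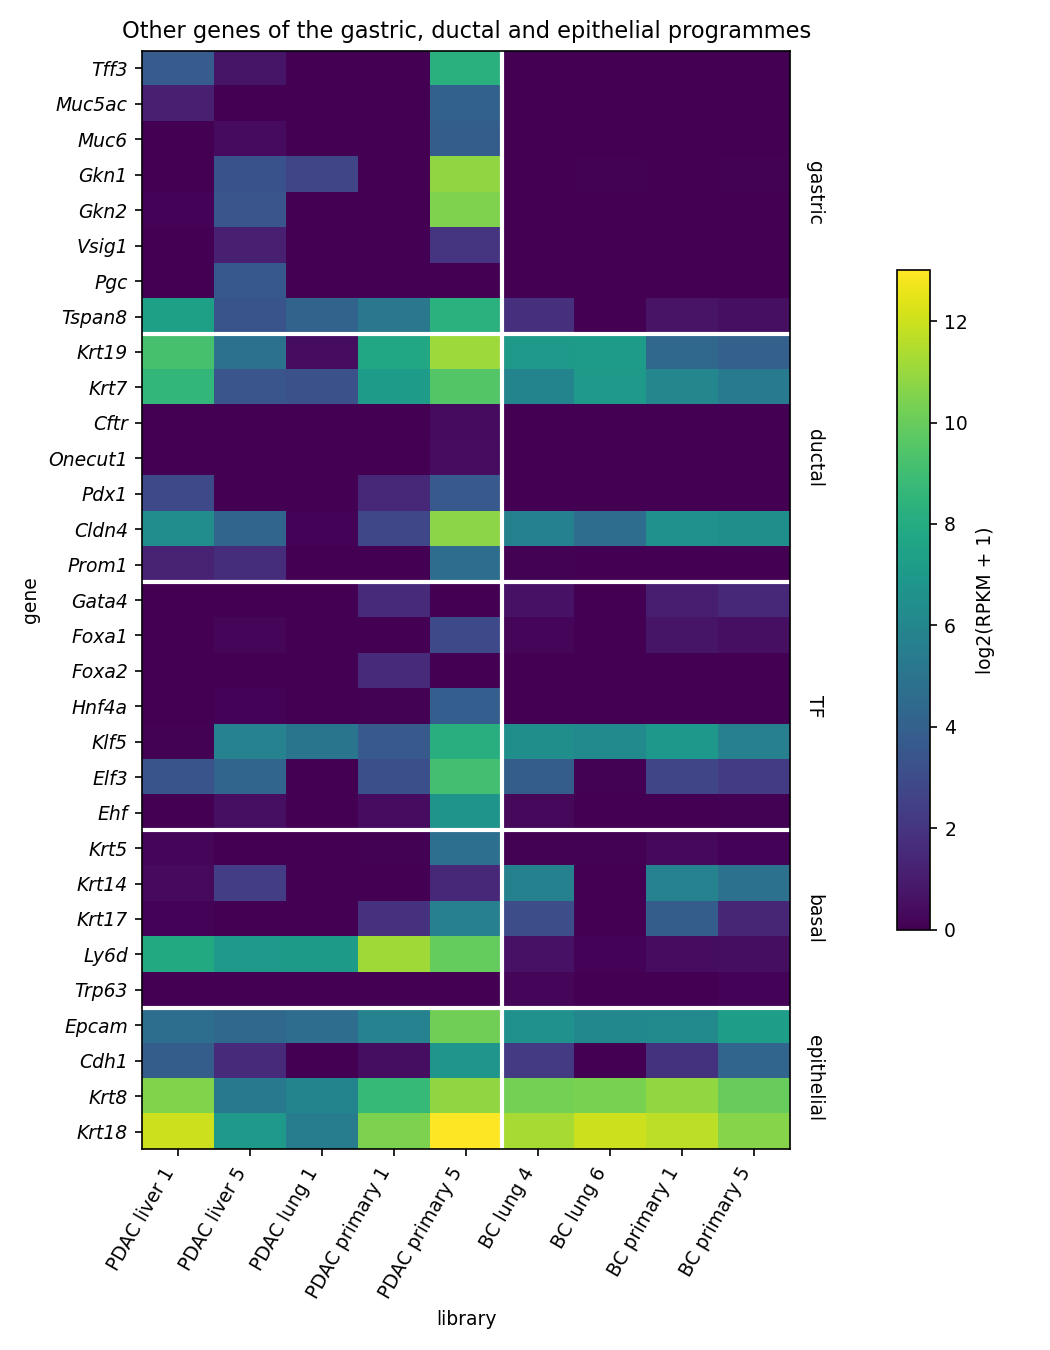
Levels, as log2(RPKM + 1), of other gastric, duct, transcription factor, basal and epithelial genes in each library, PDAC libraries left of BC. Gkn1 and Gkn2 are bright in PDAC primary 5 and dark in primary 1.

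**Figure D5:**
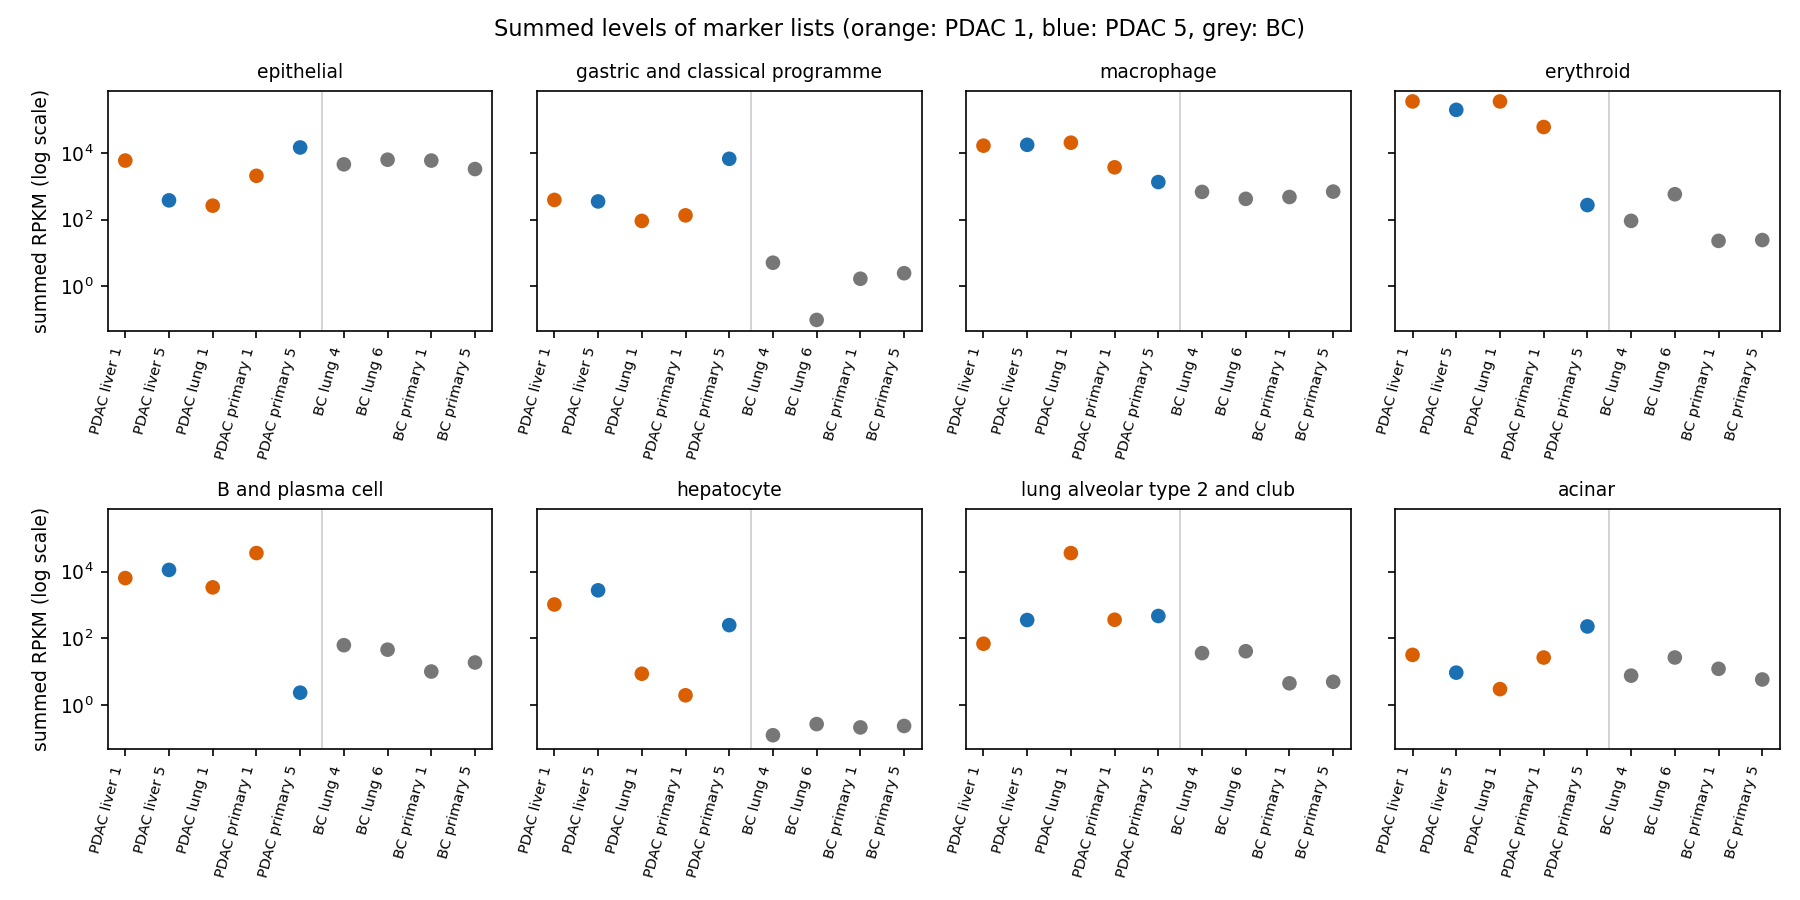
Summed RPKM of marker lists in each library on a log axis, PDAC libraries first. Erythroid sums are 61295 RPKM or more in 4 PDAC libraries and 276 RPKM in PDAC primary 5, and epithelial sums range from 265 to 14887 RPKM.

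The 10 genes varied together to different degrees across the 9 libraries, which differ in depth and cell content. Pearson's r of the log2 levels was 0.98 for Agr2 and Cldn18, 0.98 for Cldn18 and Gata6, 0.94 for Tff2 and Muc1 and 0.91 for Tff2 and Anxa10. It was 0.47 for Agr2 and Anxa10, -0.51 for Sox9 and Ctse and 0.06 for Tff2 and Spp1. PDAC primary 5 is the highest library for most of these genes and weighs heavily in each r. The genes on no list whose profile was most like the mean of the 6 gastric members were Gpx2 (0.99), Pir (0.978), 1700008P20Rik (0.977), Wnt4 (0.977) and Prr15l (0.976). Gpx2, the gastrointestinal glutathione peroxidase, was at 12.5, 12.4, 0, 11.5 and 665 RPKM in PDAC liver 1, liver 5, lung 1, primary 1 and primary 5, against at most 0.0244 RPKM in BC. For the mean of Muc1, Sox9, Spp1 and Gata6 they were Nsfl1c (0.96), Cblc (0.959), Abcd3 (0.958), Pcgf3 (0.958) and Cuedc1 (0.947).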

How the data were processed

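RNA of sorted tumour cells was amplified with SMART-seq v4 and made into libraries with Nextera XT, per the labels' protocols. Reads were placed on mm9, per the submitters' processing notes, while aligner, counter and annotation are not given in the sources used here. Deposited values were read as RPKM made by the authors. Between 62.8% and 74.4% of low values per library were whole multiples of 1 read after multiplying by gene length (GENCODE M21, 93.0% of genes, tolerance 0.02, under 20 reads), against 4.5% to 5.4% as deposited, although the table is named for CPM. Read numbers beside values are estimates from these steps, with lengths of another annotation.

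Log2(RPKM + 1) was fitted with limma 3.58.1 in R 4.3.3 (trend and robust, two-sided, Benjamini-Hochberg adjustment). The 12832 genes tested reached 1 RPKM in 2 or more libraries. Group comparisons used 1 mean per group, and PDAC against BC used model and site. A group with a single library (PDAC lung, or after leaving one out) took its spread from the others. A fold on this scale understates the change of low genes. The fit was tested on simulated data with planted changes. Where labels do not name separate animals, the spread may be technical.

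Matching of PDAC numbers comes from the design text, which speaks of matched metastases. The deviations of primary and liver libraries from their group means correlated at -0.165 over 12832 genes. The main tests have no replicate block, and blocked values stand beside results whose calls they alter. In PDAC against BC the block covers the PDAC numbers only. Alternatives were another pseudocount, no filter, other scalings, fewer libraries, a block and each library left out. Named genes were the 10 members, listed genes by name, and the 5 most alike by Pearson's r. Lgals4, Vsig2, Car2, Mmp3, Gkn3, Atp4a, Kcnq1, Chia and Ghrl were named after their values were seen. The members and lists were chosen with earlier results of these data known. The RefSeq promoters are of another build than the files. One gene of the duct list is not reported here.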

Additional observations from a re-analysis of the deposited data

Results flagged for a closer look

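Of the 10 genes, 8 were flagged because 1 library stood far from the other 4 PDAC libraries, and that library was PDAC primary 5 each time. The gap between the highest and the next highest level, as a share of the range over the 5 PDAC libraries, was 0.977 for Muc1, 0.97 for Tff2, 0.969 for Sox9, 0.965 for Cldn18, 0.93 for Tff1, 0.928 for Agr2, 0.891 for Ctse and 0.813 for Gata6. Across 19 sets of values checked, 8 were flagged at levels of 1 RPKM or more. The share was taken on RPKM and not on the log2 scale, and sets below 1 RPKM could not be flagged. The count therefore has no chance rate to be set against. The genes share their libraries, so these are not 8 separate signs. Anxa10 and Spp1 were not flagged. PDAC primary 5 also had the highest epithelial sum, 14887 RPKM, the lowest erythroid sum of the PDAC libraries, 276 RPKM, and 10410 genes above 0.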

How the results depend on the processing

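Members called in PDAC against BC numbered 1, and 2 under quantile scaling or rescaling without haemoglobin genes, 3 with the replicate block or without the 3 libraries with the fewest genes, 4 with PDAC libraries averaged per mouse (chosen after seeing the data), and 1 to 3 with each library left out. All genes called there numbered 381, and 207 with no filter, 30 scaled on epithelial genes, 1145 without the 3 libraries, 1288 averaged per mouse and 153 to 818 with each library left out. Between the primary tumours 0 members were called (0 to 6 with each library left out) and 4 genes, with 0 under no filter or only the groups compared, 13 under quantile scaling, 2 scaled on epithelial genes, 1 without trend and robust fitting, 72 without the 3 libraries and 1 to 803 with each left out.

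For PDAC liver against PDAC primary the counts were 0 members (0 to 5 with each library left out) and 1 gene (0 to 1032). The gene count was 0 with a pseudocount of 0.1, no filter, quantile scaling, no haemoglobin, only the groups compared, the replicate block or without the 3 libraries, 16 scaled on epithelial genes, 2 without trend and robust fitting and 46 with a crossed replicate block (chosen after seeing the data). For PDAC lung against PDAC primary they were 0 members (0 to 6) and 75 genes (0 to 1547), with 270 at a pseudocount of 0.1, 251 with no filter, 161 under quantile scaling, 29 scaled on epithelial genes, 1 with only the groups compared, and 0 without trend and robust fitting or with the replicate block. For BC lung against BC primary 73 genes were called with only the groups compared, against 0. The difference of metastasis effects gave 0 genes, and 0 to 30 with each library left out.

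Between the primary tumours the replicate block joins numbers of different models, whose deviations correlated at 0.0351, and 0 members were called with it. Signs turned in these cases. In PDAC liver against primary, Anxa10 (0.22) and Gata6 (0.69) turned on the epithelial scale, and Muc1 (0.45) and Tff2 (0.16) without the 3 libraries. With each library left out there, the ranges were -5.91 to 0.33 for Agr2, -3.56 to 0.85 for Anxa10, -5.50 to 0.45 for Muc1, -4.50 to 0.94 for Spp1 and -5.63 to 0.16 for Tff2. In PDAC lung against primary, Spp1 (0.27), Ctse (0.56) and Gata6 (1.78) turned on the epithelial scale. Gata6 was listed at 0 in PDAC liver 1, lung 1 and primary 1, and scaling shifts a value of 0. In BC lung against primary, Muc1 was -0.99 at a pseudocount of 0.1 and -0.17 without haemoglobin, and -1.23 to 1.36 with each library left out, Sox9 being -1.58 to 0.50. Spp1 between the primaries was -0.94 to 0.13. The cause was not tested. In BC lung against primary 4 of 9 members were positive, and 7 of 9 under quantile or epithelial scaling. Levels resting on a few reads limit what can be said of Tff1 and the PDAC lung library.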

Other observations

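Stomach gland genes were read after the gastric genes had been seen in PDAC primary 5. Pgc, the pepsinogen C gene of gland and antral cells, was at 10.9 RPKM in PDAC liver 5 and listed at 0 in the other 8 libraries. Atp4a, the proton pump gene of acid-secreting parietal cells, was at 0.0146 RPKM in PDAC liver 5 and listed at 0 elsewhere, PDAC primary 5 included. Of 10 genes listed for stomach gland cells, Atp4a among them, 4 had deposited values and 1, Kcnq1, was tested. Kcnq1 was at 0, 0.766, 0, 3.68 and 34.4 RPKM in PDAC liver 1, liver 5, lung 1, primary 1 and primary 5. It had at most 0.309 RPKM in BC and was not called. Chia and Ghrl, also listed, had at most 0.0168 and 0.261 RPKM in PDAC. Gkn3, a gastrokine, was at 0.0686, 242, 0.0927, 7.40 and 1539 RPKM in PDAC liver 1, liver 5, lung 1, primary 1 and primary 5, against at most 0.0463 RPKM in BC.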
